A study of Mus musculus with 24 samples.

Results

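The polyol, fructose and osmolyte genes are 8 genes, Akr1b3, Sord, Khk, Tkfc, Slc5a3, Slc6a12, Slc6a6 and Nfat5, chosen by name for their place in the aldose reductase pathway, in fructose breakdown and in osmolyte transport under the transcription factor NFAT5. They are 8 of 17736 genes tested on kidney arrays, and 14 array probes carry their names. RNA of renal tissue from male Crl:CD1(ICR) mice was measured on 24 single-colour Agilent arrays, 1 array per sample, in 3 groups. The DKD+enarodustat group (n = 9) received 90 mg/kg alloxan into a vein 3 days before grouping and then feed containing 0.01% enarodustat, the DKD group (n = 9) received the same alloxan dose and normal feed, and the Sham group (n = 6) received vehicle and normal feed. Kidneys were collected 16 days after grouping in all groups. Alloxan destroys the insulin-producing cells of the pancreas, so the diabetic groups model insulin-deficient high blood glucose over a short time, and the name DKD stands for diabetic kidney disease. Enarodustat blocks prolyl hydroxylase enzymes and so stabilises hypoxia-inducible factor. The diabetic groups had been balanced on glucose in blood and on body weight, and no label used here names the zone of the kidney that was sampled.

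In the polyol pathway, aldose reductase (Akr1b3) reduces glucose to sorbitol and sorbitol dehydrogenase (Sord) oxidises sorbitol to fructose. Ketohexokinase (Khk) phosphorylates fructose, and triokinase (Tkfc) phosphorylates the glyceraldehyde that is released when fructose phosphate is split. Cells of the renal medulla, which face very high salt and urea, accumulate sorbitol, myo-inositol, betaine and taurine as osmolytes. Myo-inositol is carried into cells by the sodium-coupled transporter encoded by Slc5a3, betaine by that of Slc6a12 and taurine by that of Slc6a6. NFAT5, also called TonEBP, is the transcription factor that raises Akr1b3 and these 3 transporters in hypertonic surroundings, through a DNA element called TonE.

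RefSeq promoter windows (build GRCm38.p6) were matched by symbol for 6 of the 8 genes, and the 250 bases before each annotated start were searched on both strands for TonE by its name, for its core TGGAAA, for ACGTG and GCGTG, which are forms of the core bound by hypoxia-inducible factor, and for CACGTG. Akr1b3 and Slc6a6 were not among the matched genes. The Slc6a12 and Slc5a3 windows are shown because these transporters gave the highest differences among the 8 genes between DKD and Sham kidneys. The Slc6a12 sequence is chr6:121342324-121342573, plus strand, with its TonE match in capitals, and the Slc5a3 sequence is chr16:92058072-92058321, plus strand, with 2 matches to GCGTG in capitals, the second on the minus strand.
Slc6a12: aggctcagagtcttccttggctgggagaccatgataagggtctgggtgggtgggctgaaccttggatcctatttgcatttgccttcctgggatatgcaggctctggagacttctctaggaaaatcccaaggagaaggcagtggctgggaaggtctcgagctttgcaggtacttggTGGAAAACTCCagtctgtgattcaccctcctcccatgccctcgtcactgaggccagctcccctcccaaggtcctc
Slc5a3: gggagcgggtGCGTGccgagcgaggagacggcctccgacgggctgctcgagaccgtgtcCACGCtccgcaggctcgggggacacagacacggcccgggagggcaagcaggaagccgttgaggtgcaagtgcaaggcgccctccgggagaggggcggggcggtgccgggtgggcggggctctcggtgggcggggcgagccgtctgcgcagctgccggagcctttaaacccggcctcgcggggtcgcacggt
The match to TonE in the Slc6a12 window lies 75 to 65 bases before the annotated start and contains the TGGAAA core. It was the only TonE match among the windows of the 6 matched genes. Of the 32851 windows of this length that were searched, 4.31% held TonE, 18.6% TGGAAA, 16.6% ACGTG, 28.2% GCGTG and 6.02% CACGTG. These windows did not cover every chromosome. The other 4 windows of Slc6a12, which belong to starts further along the gene, held no match to any of these motifs. Tkfc held TGGAAA without the rest of the element, and 1 GCGTG, and Khk held CACGTG, which also counts as ACGTG on either strand. Nfat5 held 1 GCGTG, and the Sord window held no match. A match is a string of letters and not a measured binding site.

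A level is the log2 of a probe's signal minus the log2 of the 75th percentile of its array. A level of 0 equals that percentile, and levels of different genes are not comparable because each probe has its own brightness. Differences are log2 differences ± SE from 1 limma fit of all 24 arrays, and rose or fell is written of a gene only at an adjusted p (Benjamini-Hochberg, over all 17736 genes) below 0.05. All 14 probes of the 8 genes were well above background on all 24 arrays. Each array had 37716 to 44732 non-control spots well above background, and levels of arrays of 1 group correlated at 0.964 to 0.991 across genes. The arrays filled 3 slides. Each slide carried arrays of all groups, with Sham arrays in row 1, DKD+enarodustat arrays in row 2, and DKD arrays in row 1 (6 arrays) and row 2 (3 arrays). Every proximal tubule (10), thick ascending limb (7) and principal cell (9) marker looked up was well above background on at least 1 array. The series text counts mice per group, so each array was taken as a separate mouse, and precision is limited by 6 to 9 arrays a group.

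**Figure D1:**
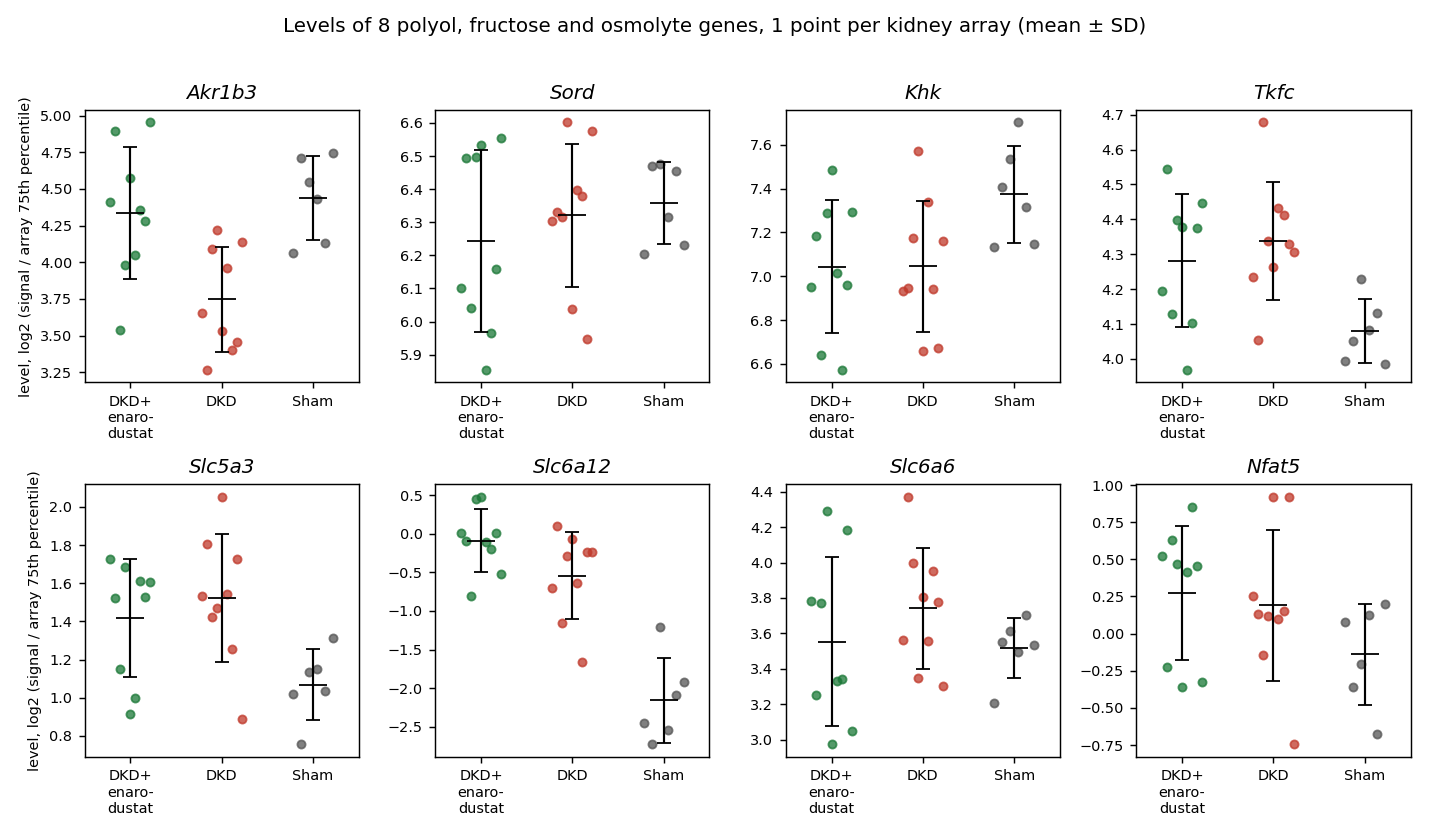
Level of each of the 8 genes (y axis, log2 signal relative to the array's 75th percentile, a separate scale for each gene) on every array, with DKD+enarodustat (9 arrays), DKD (9) and Sham (6) from left to right. Points are arrays and bars are mean ± SD. Akr1b3 averages 3.75 in DKD kidneys against 4.44 in Sham kidneys, and Slc6a12 averages −0.54 in DKD kidneys against −2.16 in Sham kidneys.

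Between DKD and Sham kidneys 1 of the 8 genes rose, the betaine transporter gene Slc6a12, and 1 fell, the aldose reductase gene Akr1b3, although both belong to the NFAT5 targets. The other 6 did not pass, and 3 of those had an unadjusted p below 0.05. Over all genes 11.6% passed in this comparison, 5.47% higher and 6.13% lower. The groups overlapped for all 8 genes, while 3.4% of all genes had no overlap between DKD and Sham arrays. In whole-tissue RNA, fewer cells of a type and less RNA per cell cannot be told apart.

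Slc6a12 ranged from −1.67 to 0.10 in DKD kidneys, with a median of −0.28, against −2.72 to −1.21 in Sham kidneys, with a median of −2.27. Among the DKD kidneys 8 of 9 lay above the highest Sham kidney, and DKD replicate 7 was the lowest. The mean level was −0.54 ± 0.57 in DKD kidneys (SD, n = 9) and −2.16 ± 0.55 in Sham kidneys (SD, n = 6). The difference was 1.61 ± 0.26, a 3.06-fold rise (adjusted p = 2.65e-04), which placed Slc6a12 at rank 41 among the positive differences of all genes. Within slides 1, 2 and 3 it was 2.00, 1.55 and 1.29. It stayed past the threshold when any 1 array was left out (1.501 to 1.80). In the authors' deposited table, refitted, it was 1.07 and passed (adjusted p = 4.93e-04). After normexp background correction it was 1.09 and passed (adjusted p = 3.37e-04), and with quantile normalization alone it was 1.55. The size of the rise therefore varied with the processing. The deposited values nearly match normexp with an offset of 50, which the normexp fit also used, so these 2 are not separate alternatives. The cause of the variation was not tested. Slc6a12 has 1 probe.

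Akr1b3 ranged from 3.27 to 4.22 in DKD kidneys, with a median of 3.65, against 4.06 to 4.74 in Sham kidneys, with a median of 4.49. All 9 DKD kidneys lay below the Sham mean and 6 lay below the lowest Sham kidney, so the groups overlapped in part. The mean was 3.75 ± 0.36 in DKD kidneys (SD, n = 9) and 4.44 ± 0.29 in Sham kidneys (SD, n = 6). Akr1b3 fell by 0.69 ± 0.19 (adjusted p = 0.0219), which is 1.61-fold lower in DKD, and its second probe fell by 0.71 ± 0.20 (adjusted p = 0.0214 over all 25728 probes fitted). Within slides 1, 2 and 3 the differences were −0.71, −0.59 and −0.77. The call was lost without Sham replicate 2, 3 or 6, with adjusted p up to 0.0594, and with the replicate number of the labels as a block (−0.72, adjusted p = 0.0527).

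Sord, which takes sorbitol to fructose, ranged from 5.95 to 6.60 in DKD kidneys, with a median of 6.33, against 6.20 to 6.48 in Sham kidneys, with a median of 6.39. The Sham range lay inside the DKD range. The difference was −0.04 ± 0.12 (95% interval −0.28 to 0.21, adjusted p = 0.895), and the second probe of Sord gave 0.03 ± 0.11. Sord therefore had no call beside that of Akr1b3, the enzyme before it in the pathway, and the difference between the 2 genes was not tested.

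Of the fructose enzymes, Khk ranged from 6.66 to 7.57 in DKD kidneys, with a median of 6.95, against 7.14 to 7.70 in Sham kidneys, with a median of 7.36. In DKD 8 of 9 kidneys lay below the Sham mean and 5 below the lowest Sham kidney. The Khk difference was −0.33 ± 0.15 (adjusted p = 0.165) and did not pass. Tkfc ranged from 4.05 to 4.68 in DKD kidneys, with a median of 4.33, against 3.98 to 4.23 in Sham kidneys, with a median of 4.07. All DKD kidneys but replicate 2 lay above the highest Sham kidney, although the difference, 0.26 ± 0.09, was small and missed the threshold (adjusted p = 0.0683). Tkfc passed with quantile normalization (0.37, adjusted p = 0.00529), in the authors' deposited table (0.34, adjusted p = 0.0154) and without DKD replicate 2 (adjusted p = 0.0374).

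Slc5a3, the myo-inositol transporter gene, ranged from 0.89 to 2.05 in DKD kidneys, with a median of 1.54, against 0.76 to 1.31 in Sham kidneys, with a median of 1.08. Of the 9 DKD kidneys 7 lay above the highest Sham kidney, and DKD replicate 9 lay below the Sham mean. At the brightest probe the difference was 0.45 ± 0.15 and just missed the threshold (adjusted p = 0.055). At the second probe the mean was 1.03 ± 0.29 in DKD kidneys (SD, n = 9) and 0.43 ± 0.12 in Sham kidneys (SD, n = 6), and the difference of 0.60 ± 0.12 passed (adjusted p = 0.00227 over all probes fitted). The brightest probe passed without Sham replicate 6, DKD replicate 9 or DKD+enarodustat replicate 5 or 6 (adjusted p down to 0.0156). Within slides 1, 2 and 3 the differences were 0.70, 0.55 and 0.12.

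Slc6a6, the taurine transporter gene, ranged from 3.30 to 4.37 in DKD kidneys, with a median of 3.78, against 3.21 to 3.71 in Sham kidneys, with a median of 3.54. In 5 of the 9 DKD kidneys Slc6a6 lay above the highest Sham kidney. The difference was 0.22 ± 0.19 at the brightest probe (adjusted p = 0.517) and 0.54 ± 0.16 at the second probe, which passed (adjusted p = 0.034 over all probes fitted). Within slides 1, 2 and 3 the brightest probe gave 0.60, 0.01 and 0.06, so most of its difference came from slide 1. At the second probe the SD was 0.37 among DKD kidneys (n = 9) and 0.13 among Sham kidneys (n = 6).

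Nfat5, the factor itself, ranged from −0.74 to 0.92 in DKD kidneys, with a median of 0.13, against −0.68 to 0.20 in Sham kidneys, with a median of −0.06. The groups overlapped over the whole Sham range. The difference was 0.33 ± 0.23 (95% interval −0.14 to 0.80, adjusted p = 0.406), and the other 2 probes gave 0.33 ± 0.22 and 0.39 ± 0.23. With slide row as a term it was 0.56 (adjusted p = 0.114). All 3 probes were on the same side of 0 and none passed. NFAT5 is also regulated as a protein, by its entry into the nucleus, which these arrays do not measure.

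**Figure D2:**
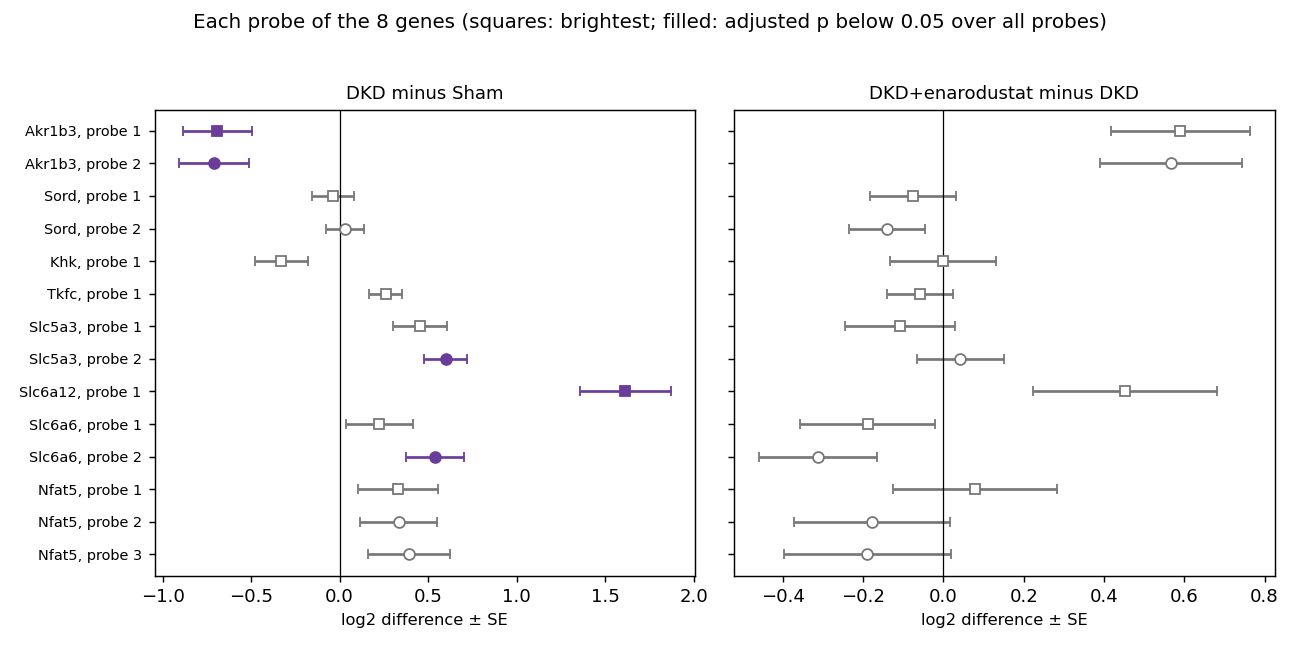
Difference ± SE on the log2 scale (x axis) at each of the 14 probes of the 8 genes (y axis), for DKD minus Sham on the left and DKD+enarodustat minus DKD on the right. Squares mark the brightest probe of a gene and filled symbols an adjusted p below 0.05 over 25728 probes. Both Akr1b3 probes fell in DKD, by 0.69 and 0.71, and the second probes of Slc5a3 and Slc6a6 rose by 0.60 and 0.54, while no probe passed on the right.

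Between DKD+enarodustat and DKD kidneys none of the 8 genes passed by limma, and 1 of them, Akr1b3, had an unadjusted p below 0.05. Over all genes 0.716% passed, so a count of 0 among 8 is near that share. The groups overlapped for all 8 genes, and 0.147% of all genes had no overlap. No other tool was run on this comparison.

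Akr1b3 ranged from 3.54 to 4.95 in DKD+enarodustat kidneys, with a median of 4.36, against 3.27 to 4.22 in DKD kidneys, with a median of 3.65. Of the 9 DKD+enarodustat kidneys 6 lay above the highest DKD kidney, and DKD+enarodustat replicate 3 was the lowest. The mean was 4.34 ± 0.45 in DKD+enarodustat kidneys and 3.75 ± 0.36 in DKD kidneys (SD, n = 9 each), with a difference of 0.59 ± 0.17 (95% interval 0.23 to 0.95) that did not pass (adjusted p = 0.144). The second probe gave 0.57 ± 0.18 (adjusted p = 0.188). The difference was 0.61, 0.30 and 0.87 within slides 1, 2 and 3. In row 2 of the slides, which alone holds both groups, the mean was 4.34 in 9 DKD+enarodustat kidneys and 4.06 in 3 DKD kidneys, a difference of 0.27. In row 1 the mean was 3.59 in 6 DKD kidneys and 4.44 in 6 Sham kidneys, a difference of −0.85. With slide row as a term the difference of DKD+enarodustat minus DKD was 0.27 (adjusted p = 0.693).

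Median differences of red cell, leukocyte, and fibroblast and smooth muscle markers moved the same way as Akr1b3, and those of the other marker lists did not. For leukocyte markers they were −0.20 in DKD minus Sham, with 1 of 8 lower and 0 higher. In DKD+enarodustat minus DKD they were 0.32, with 0 of 8 passing. For fibroblast and smooth muscle markers the medians were −0.11 and 0.23, with 0 of 6 passing in either comparison. Of the 4 tested of 5 listed red cell markers, 0 were higher and 3 lower in DKD minus Sham, with a median difference of −0.93. In DKD+enarodustat minus DKD 1 red cell marker was higher and 0 lower, with a median of 0.98. The summed level of the red cell markers, in multiples of the array's 75th percentile, was 255 to 850 in DKD+enarodustat kidneys, 146 to 472 in DKD kidneys and 296 to 753 in Sham kidneys. The part of these cell types in the Akr1b3 values was not tested.

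Slc6a12 ranged from −0.81 to 0.48 in DKD+enarodustat kidneys, with a median of −0.10, against −1.67 to 0.10 in DKD kidneys, with a median of −0.28. Of the 9 DKD+enarodustat kidneys 8 lay above the DKD mean and 2 above the highest DKD kidney. The difference was 0.45 ± 0.23 (95% interval −0.02 to 0.93) and did not pass (adjusted p = 0.489). In row 2 alone it averaged −0.09 in 9 DKD+enarodustat kidneys and −0.68 in 3 DKD kidneys.

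The other 6 genes did not pass, with adjusted p-values of 0.793 to 0.998. Sord, Khk and Tkfc differed by −0.08 ± 0.11, −0.0014 ± 0.13 and −0.06 ± 0.08. Their 95% intervals were −0.30 to 0.14, −0.27 to 0.27 and −0.23 to 0.11, so differences of those sizes cannot be told from 0 with these arrays. Slc5a3, Slc6a6 and Nfat5 differed by −0.11 ± 0.14, −0.19 ± 0.17 and 0.08 ± 0.20. Probes of Slc5a3 differed in sign, at −0.11 and 0.04, as did those of Nfat5, at 0.08, −0.18 and −0.19. In row 2 alone Nfat5 averaged 0.27 in 9 DKD+enarodustat kidneys and −0.26 in 3 DKD kidneys. With slide row as a term none of these 6 passed, and the differences were −0.18 for Sord, −0.18 for Khk, −0.19 for Tkfc, 0.13 for Slc5a3, −0.07 for Slc6a6 and 0.53 for Nfat5.

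**Figure D3:**
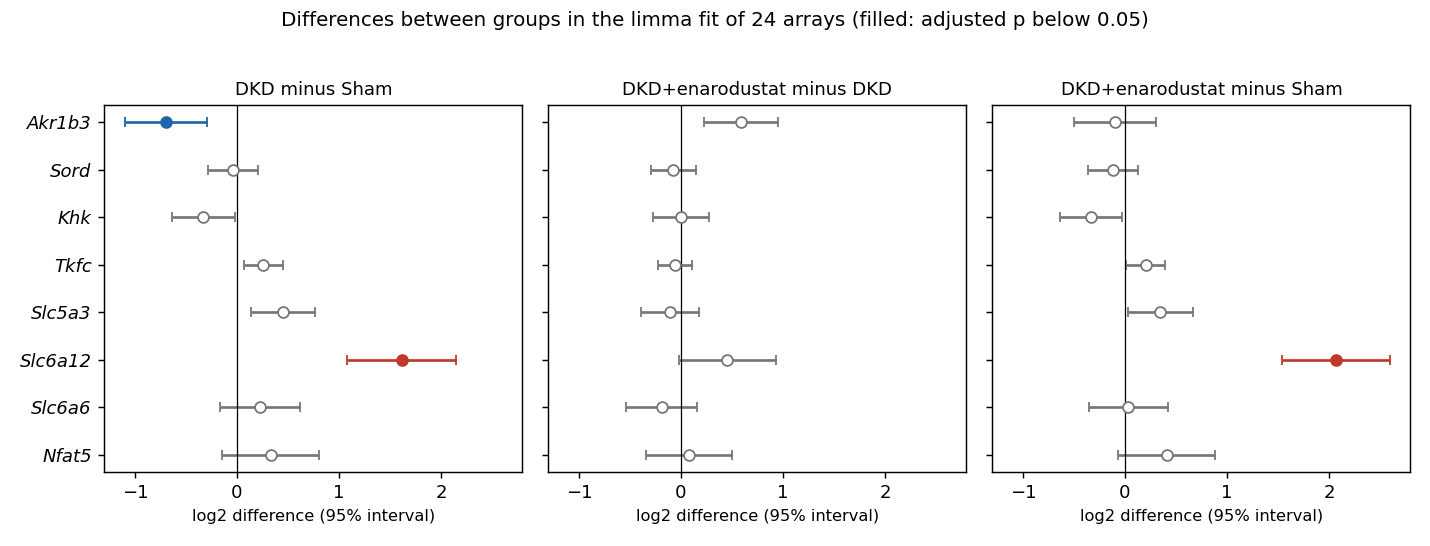
Log2 difference with its 95% interval (x axis) for each of the 8 genes (y axis) in the limma fit, for DKD minus Sham, DKD+enarodustat minus DKD and DKD+enarodustat minus Sham. Filled points passed at an adjusted p below 0.05. Slc6a12 is filled on the right of 0 against Sham in both diabetic groups (1.61 and 2.07), and Akr1b3 is filled on the left in DKD minus Sham (−0.69).

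Between DKD+enarodustat and Sham kidneys 1 of the 8 genes rose, Slc6a12, and 0 fell. Over all genes 15.5% passed, 8.74% higher and 6.75% lower. This comparison shares its Sham kidneys with DKD minus Sham and its treated kidneys with DKD+enarodustat minus DKD. Sham and DKD+enarodustat arrays lay in different slide rows throughout, so a row effect and the group difference can be separated only through the DKD arrays. Slc6a12 averaged −0.09 ± 0.41 in DKD+enarodustat kidneys (SD, n = 9) and −2.16 ± 0.55 in Sham kidneys (SD, n = 6). All 9 DKD+enarodustat kidneys lay above all 6 Sham kidneys, as the arrays of both groups did without overlap for 4.94% of all genes. The difference was 2.07 ± 0.26, 4.19-fold (adjusted p = 1.54e-05), and it was 2.29, 2.15 and 1.76 within slides 1, 2 and 3. With slide row as a term it was 2.27 (adjusted p = 0.00645). It was 1.44 after normexp background correction (adjusted p = 1.48e-05) and 1.42 in the authors' deposited table, refitted (adjusted p = 2.05e-05).

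Akr1b3 averaged 4.34 ± 0.45 in DKD+enarodustat kidneys (SD, n = 9) and 4.44 ± 0.29 in Sham kidneys (SD, n = 6). The difference was −0.10 ± 0.19 (95% interval −0.50 to 0.30, adjusted p = 0.791), and 3 of the 9 treated kidneys lay below the lowest Sham kidney and 2 above the highest. With slide row as a term the difference was −0.58 (adjusted p = 0.255). Khk differed by −0.33 ± 0.15 (adjusted p = 0.135), and Tkfc by 0.20 ± 0.09 (adjusted p = 0.139). Slc5a3 differed by 0.35 ± 0.15 at the brightest probe (adjusted p = 0.127) and by 0.64 ± 0.12 at the second, which passed (adjusted p = 0.00102 over all probes fitted). Sord, Slc6a6 and Nfat5 differed by −0.11 ± 0.12, 0.03 ± 0.19 and 0.41 ± 0.23, with adjusted p-values of 0.573, 0.936 and 0.24. With slide row as a term the differences were 1.09 for Nfat5 (adjusted p = 0.0673), 0.70 for Slc5a3 (adjusted p = 0.0882), −0.60 for Khk (adjusted p = 0.138) and 0.0019 for Tkfc (adjusted p = 0.994). Sord and Slc6a6 then differed by −0.28 and 0.22, with adjusted p-values of 0.395 and 0.691.

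The genes around the 8 were taken from pathway lists. Over all genes 11.6% passed in DKD minus Sham and 15.5% in DKD+enarodustat minus Sham. Among 8 aldo-keto reductases and polyol enzymes, 0 rose, 3 fell and 5 did not pass between DKD and Sham kidneys. The fallers were Akr1b3 and its relatives Akr1b8 and Akr1b10, with means of 0.92 in DKD against 1.60 in Sham kidneys and of 2.70 in DKD against 3.12 in Sham kidneys. Akr1b8 differed by −0.68 ± 0.17 (adjusted p = 0.00978) and Akr1b10 by −0.42 ± 0.12 (adjusted p = 0.0241). Each has 1 probe, which may not separate close relatives. In DKD+enarodustat kidneys Akr1b8 averaged 0.89 and Akr1b10 2.69, and they differed from DKD kidneys by −0.02 and −0.02 where Akr1b3 differed by 0.59. The list median was −0.21 in DKD minus Sham, beside −0.01 over all genes. Akr1a1, which reduces many aldehydes, differed by 0.03 and the xylulose reductase gene Dcxr by −0.17, without passing.

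Of 11 genes of fructose breakdown and entry, 2 rose, 0 fell and 9 did not pass in DKD minus Sham. Both risers are transporters. Slc2a5, which carries fructose, averaged 5.10 in DKD and 4.26 in Sham kidneys (0.84 ± 0.16, adjusted p = 0.00143). Slc2a2, which carries glucose and fructose, averaged 1.09 in DKD and 0.22 in Sham kidneys (0.87 ± 0.10, adjusted p = 2.18e-05). In DKD+enarodustat kidneys they averaged 4.78 and 0.84, still higher than Sham (0.52, adjusted p = 0.0308, and 0.61, adjusted p = 3.69e-04), although neither passed with slide row as a term (0.25, adjusted p = 0.582, and 0.56, adjusted p = 0.0667). The list median was 0.03.

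Of 16 NFAT5 targets and partners, 3 rose, 3 fell and 10 did not pass in DKD minus Sham, with a median of −0.01. Besides Slc6a12 the risers were the water channel gene Aqp2 (0.91 ± 0.14, adjusted p = 1.65e-04) and Ranbp3l (0.59 ± 0.12, adjusted p = 0.00225). Besides Akr1b3 the fallers were Rela, a subunit of NF-kappaB (−0.36 ± 0.10, adjusted p = 0.0161), and the osmotic stress chaperone gene Hspa4l (−0.25 ± 0.08, adjusted p = 0.0492). The heat shock genes Hspa1a and Hspa1b, whose near-identical sequences the probes may not separate, differed by −0.65 ± 0.40 and −0.63 ± 0.29 without passing (adjusted p = 0.338 and 0.182). The urea transporter gene Slc14a2 differed by 0.31 ± 0.38 and its probes differed in sign. The list therefore had as many risers as fallers. Rela lost its call with quantile normalization (−0.25, adjusted p = 0.157) and in the authors' deposited table, refitted (−0.28, adjusted p = 0.0826). Hspa4l lost its call in 5 of the 8 alternatives tried, among them no detection filter (adjusted p = 0.0722).

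In the inositol list of 8, 1 rose, 1 fell and 6 did not pass in DKD minus Sham. Slc2a13, a proton-coupled myo-inositol transporter, rose by 0.24 ± 0.07 (adjusted p = 0.0275), and Impa1, which releases free inositol from its phosphate, fell by 0.34 ± 0.09 (adjusted p = 0.0111). Impa1 did not pass with quantile normalization (−0.26, adjusted p = 0.065) or in the authors' deposited table, refitted (−0.24, adjusted p = 0.0681). Miox, which degrades inositol in the proximal tubule, differed by −0.15 (adjusted p = 0.425). Against Sham, DKD+enarodustat kidneys had 3 risers in this list, Slc2a13 (0.23), the inositol phosphate synthase gene Isyna1 (0.36) and Impa2 (0.57, adjusted p = 0.00127), and 1 faller, Impa1 (−0.33). None of these 4 passed with slide row as a term (adjusted p from 0.193 to 0.512). Their differences were then 0.26 for Slc2a13, 0.36 for Isyna1, 0.39 for Impa2 and −0.15 for Impa1. In the list of 13 taurine, betaine and glycerophosphocholine genes, 2 rose, 1 fell and 10 did not pass in DKD minus Sham. Csad, which makes taurine, averaged 4.28 in DKD and 4.85 in Sham kidneys (−0.57 ± 0.11, adjusted p = 0.00105). Gdpd5, which breaks down glycerophosphocholine, rose beside Slc6a12 (0.46 ± 0.12, adjusted p = 0.0119). Its difference was 0.24 in the authors' deposited table, refitted (adjusted p = 0.0428), and 0.27 after normexp background correction (adjusted p = 0.0199).

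Of 13 volume-regulated channels and regulators, 0 rose, 1 fell and 12 did not pass in DKD minus Sham. The faller was the chloride transporter gene Clcn3 (−0.34 ± 0.08, adjusted p = 0.0111). Clcn3 did not pass with quantile normalization (−0.23, adjusted p = 0.285) or in the authors' deposited table, refitted (−0.25, adjusted p = 0.279). The list of 10 genes for urea and water in the medulla gave 6 risers, 0 fallers and 4 that did not pass, with a median of 0.49. Its risers include the water channel gene Aqp4 (1.19 ± 0.35, adjusted p = 0.0301), the urea transporter gene Slc14a1 (0.93 ± 0.25, adjusted p = 0.0164) and Aqp2. Aqp4 did not pass with slide row as a term (1.02, adjusted p = 0.0875). Slc14a1 was 0.44 in the authors' deposited table, refitted (adjusted p = 0.0413), and 0.47 after normexp background correction (adjusted p = 0.0313). In DKD+enarodustat minus DKD 0 genes of any of these 7 lists passed by limma, where 0.716% of all genes passed, so counts of 0 are near that share.

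**Figure D4:**
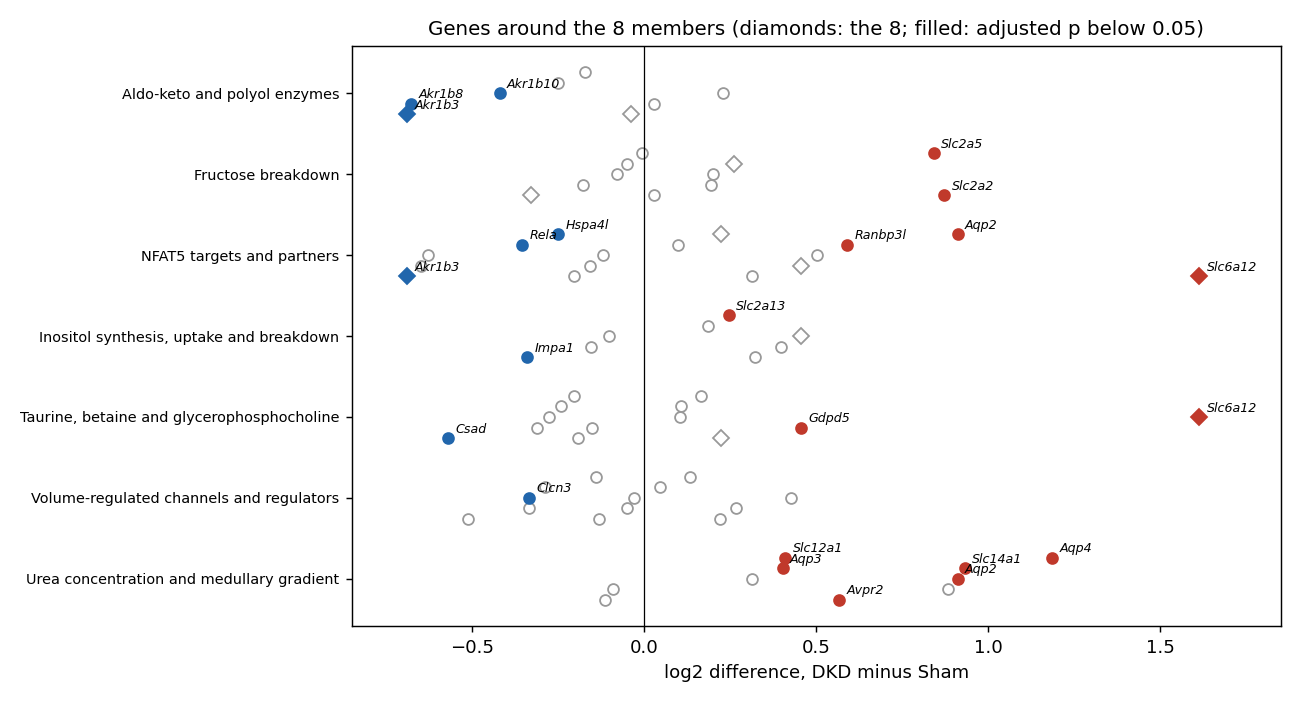
Log2 difference of DKD minus Sham (x axis) for the tested genes of 7 pathway lists (y axis), 1 point per gene, with diamonds for the 8 genes and filled, named points for an adjusted p below 0.05. The list of urea and water genes has 6 filled points, all above 0, and the aldo-keto list has 3, all below 0.

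Markers of kidney cell types differed beside these values. Over all genes 5.47% were higher and 6.13% lower in DKD minus Sham, and 0.609% higher and 0.107% lower in DKD+enarodustat minus DKD. Principal cells of the collecting duct, which hold Aqp2, had 7 of 9 markers higher and 0 lower in DKD minus Sham. Of the 6 risers in the list of urea and water genes, 4 are among these markers, so the counts are not separate observations. Their summed level, in multiples of the array's 75th percentile, was 37.1 to 54.8 in DKD+enarodustat kidneys, 43.7 to 53.7 in DKD kidneys and 28.0 to 37.3 in Sham kidneys. Inner medulla and thin limb markers had 1 of 8 higher and 0 lower in DKD minus Sham, and 1 of 8 higher in DKD+enarodustat minus DKD. Most of their summed level came from Aqp1, which the proximal tubule also holds. Without Aqp1, a choice made after seeing the data, the sums were 18.3 to 44.9 in DKD+enarodustat kidneys, 22.1 to 42.0 in DKD kidneys and 12.7 to 26.3 in Sham kidneys. Proximal tubule markers had 1 of 10 higher and 2 lower, with sums of 1041 to 1490 in DKD kidneys and 1370.1 to 1670.6 in Sham kidneys. Endothelial markers had 4 of 7 higher in DKD+enarodustat minus DKD, with sums of 35.3 to 42.1 in DKD+enarodustat kidneys and 26.6 to 33.1 in DKD kidneys. Thick ascending limb markers had 2 of 7 higher and 1 lower in DKD minus Sham and 0 of 7 called in DKD+enarodustat minus DKD, with sums of 293 to 355 in DKD+enarodustat kidneys, 292 to 363 in DKD kidneys and 352 to 401 in Sham kidneys. In DKD minus Sham 1 of 7 endothelial, 1 of 6 podocyte, 0 of 6 intercalated, 0 of 6 fibroblast and smooth muscle and 0 of 8 leukocyte markers were higher, and 1 leukocyte marker was lower. All tested markers of these lists were well above background on at least 1 array, and their part in the differences of the 8 genes was not tested.

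The 8 genes were also set against each other among the kidneys of 1 group, in 84 relations (28 pairs in each of 3 groups). By exact two-sided permutation tests 0 of them passed after Benjamini-Hochberg adjustment (lowest adjusted p = 0.116), and 13 had an unadjusted p below 0.05, 6 of them positive and 7 negative. The highest correlation was between Sord and Tkfc in DKD+enarodustat kidneys (n = 9; r = 0.913, exact permutation p = 0.00169, adjusted p = 0.116; rho = 0.883, exact permutation p = 0.00308, adjusted p = 0.129). Without the 2 kidneys farthest from the median of Sord, r was 0.93. Sord and Tkfc gave r = 0.086 in DKD kidneys (n = 9) and 0.78 in Sham kidneys (n = 6). Sord and Khk gave r = 0.857 in DKD kidneys (n = 9), 0.819 in DKD+enarodustat kidneys (n = 9) and 0.497 in Sham kidneys (n = 6). Slc5a3 and Nfat5 gave r = 0.231 in DKD+enarodustat kidneys (n = 9) and 0.564 in Sham kidneys (n = 6). In DKD kidneys Slc5a3 and Nfat5 gave r = 0.854 (n = 9; exact permutation p = 0.00728, adjusted p = 0.116; rho = 0.667, exact permutation p = 0.0589, adjusted p = 0.381), and r was 0.479 without the 2 kidneys farthest from the median of Slc5a3. Leaving out such kidneys narrows the range of the first gene, which can lower r by itself, so a lower r does not show which kidneys carried a relation. The lowest correlation was between Sord and Nfat5 in DKD kidneys (n = 9; r = −0.848, exact permutation p = 0.00831, adjusted p = 0.116; rho = −0.733, exact permutation p = 0.0311, adjusted p = 0.381), with r = −0.509 without the 2 kidneys farthest from the median of Sord. Khk and Nfat5 gave r = −0.831 in DKD+enarodustat kidneys (n = 9; exact permutation p = 0.00609, adjusted p = 0.116; rho = −0.9, exact permutation p = 0.00203, adjusted p = 0.129), with r = −0.669 without the 2 kidneys farthest from the median of Khk. Akr1b3, an NFAT5 target, and Nfat5 gave r = −0.726 in DKD+enarodustat kidneys (n = 9; exact permutation p = 0.0268, adjusted p = 0.225; rho = −0.617, exact permutation p = 0.0857, adjusted p = 0.394), with r = −0.645 without the 2 kidneys farthest from the median of Akr1b3. This pair gave r = −0.591 in DKD kidneys (n = 9) and 0.24 in Sham kidneys (n = 6), so its sign differed between groups. Khk and Nfat5 gave r = −0.629 in DKD and −0.076 in Sham kidneys. Sord and Nfat5 gave r = −0.79 in DKD+enarodustat and −0.817 in Sham kidneys.

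The genes with the most similar pattern were ranked by Pearson's r of levels centred on the group mean, over 24 arrays and 17716 genes. These r share arrays and scaling and are a description. Nfat5 was most like Gigyf1 (0.97), Zfhx3 (0.96) and Macf1 (0.96), and Khk most like Capns1 (0.94), Smdt1 (0.93) and Ndufa2 (0.93). Sord was most like Exosc6 (0.92), Rnf166 (0.91) and Cmbl (0.90), Slc6a6 like Sall1 (0.89), Prag1 (0.83) and Zfp395 (0.81), and Slc5a3 like Zfp697 (0.86), Gripap1 (0.84) and Sec63 (0.84). Tkfc was most like Rps6ka1 (0.85), Tmem82 (0.83) and Usp10 (0.83). The genes with calls had lower values, with Slc39a13 (0.78), Cdkn2b (0.78) and Nrip3 (0.76) for Slc6a12 and Nit1 (0.75), Fam53a (0.74) and Arfrp1 (0.74) for Akr1b3.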

How the data were processed

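Each scanner file holds 1 array with spot intensity values, which the authors deposited as background-subtracted, detrended signals of Agilent Feature Extraction 12.1.1.1, per the file headers, with no scaling between arrays. In the submitters' processing notes the software has version 11.5.1.1, and limma is listed too. The deposited value table is on a log2 scale that the authors left unstated: of its 753816 values, 762 differed by over 0.05 from normexp (offset 50) on median signals followed by quantile scaling, so its scale and centring could be matched. From the scanner files, log2 of the processed signal minus the array's 75th percentile (signals of 187.4 to 388.1) was taken, control spots and outlier marks were left out and spots of 1 probe were averaged. Probes were named through accessions in a RefSeq table of assembly GRCm38.p6 (32994 of 56605 named). Apart from those of the promoter windows, no gene coordinates are given because the array grid names another build. The brightest probe stood for a gene, tested where well above background on at least 6 arrays. R 4.3.3 and limma 3.58.1 fitted group means over 24 arrays, two-sided, and the fit was tested on simulated data. Alternatives covered background correction, scaling, the deposited table, detection filters, probes, slide, slide row, replicate block, the 2 groups alone and single arrays left out.

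The naming rule gives all 8 genes, up to 3 passing genes per list, direction and comparison, and 3 most similar genes for each of the 8. The 8 genes and the lists were chosen with earlier results of these data known. Genes of the lists that did not pass and are named with values were chosen after their values were seen. Probe-level fits and slide row for list genes were added after seeing the data. Same-numbered samples of different groups deviated together at a median r of 0.097 (lowest −0.358), beside −0.024 for samples of different numbers. Samples of different groups on the same slide gave a median of 0.189, beside −0.093 for different slides. The numbers were taken as sample names only, which these values do not settle. The values of 1 list gene are not reported here.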

Additional observations from a re-analysis of the deposited data

How the results depend on the processing

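Slc6a12 stayed past the threshold against Sham in both diabetic groups under all 11 alternatives that used arrays of all slides (DKD minus Sham 1.07 to 1.69, DKD+enarodustat minus Sham 1.42 to 2.27). Akr1b3 in DKD minus Sham kept its direction there (−0.85 to −0.60) and lost its call with the replicate block (−0.72, adjusted p = 0.0527). The replicate numbers were taken as sample names only, and the block ended no other call of the 8 genes. Within slides 1, 2 and 3 alone, where few arrays remain, no call of the 8 genes was left: Akr1b3 in DKD minus Sham was −0.71, −0.59 and −0.77, Slc6a12 in DKD minus Sham 2.00, 1.55 and 1.29, and Slc6a12 in DKD+enarodustat minus Sham 2.29, 2.15 and 1.76.

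Calls were gained in DKD minus Sham by Tkfc (0.37 with quantile normalization, 0.34 in the deposited table) and by Slc5a3 (0.46 in the deposited table, 0.45 among genes above background on all arrays, 0.53 as the mean over probes, 0.45 with slide as a random block, 0.57 with slide row). In DKD+enarodustat minus Sham they were gained by Khk (−0.29 with quantile normalization, −0.25 in the deposited table), Tkfc (0.29 with quantile normalization) and Slc5a3 (0.50 as the mean over probes). Differences without a call changed sign for Khk in DKD+enarodustat minus DKD (0.0076 with normexp, 0.072 and 0.016 in slides 2 and 3), Sord in DKD minus Sham (0.031 with quantile normalization), Nfat5 in DKD+enarodustat minus DKD (−0.10 as the mean over probes, −0.21 in slide 2), Slc5a3 in DKD+enarodustat minus DKD (0.29 in slide 3, 0.13 with slide row), Slc6a6 in DKD+enarodustat minus Sham (−0.024 and −0.097 in slides 2 and 3) and Akr1b3 in DKD+enarodustat minus Sham (0.095 in slide 3). The cause was not tested.

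Over all genes, DKD+enarodustat minus DKD had 108 higher and 19 lower. The lower count was 34 with quantile normalization, 46 in the deposited table, 11 without the detection filter, 12 as the mean over probes and 35 with slide as a fixed block. Higher and lower counts were 19 and 1 with slide row, 59 and 7 with the replicate block and 44 and 3 with only the 2 groups compared. In DKD+enarodustat minus Sham the counts were 1550 and 1198, with 1014 higher under normexp and 537 and 352 with slide row. Slides 1, 2 and 3 alone gave 5, 0 and 4 higher and 10, 0 and 5 lower in DKD minus Sham, 4, 3 and 0 higher and 0, 0 and 0 lower in DKD+enarodustat minus DKD, and 18, 27 and 6 higher and 18, 3 and 1 lower in DKD+enarodustat minus Sham. Pathway list genes other than the 8 numbered 3 lower in DKD minus Sham with quantile normalization and in the deposited table, 4 lower in DKD+enarodustat minus Sham with quantile normalization, and in DKD+enarodustat minus DKD 1 higher and 1 lower with quantile normalization and 1 higher and 2 lower in the deposited table. Of 34 calls of named list genes, 11 were kept under all 8 alternatives tried and 0 changed sign.

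Leaving out single arrays gave, in DKD minus Sham, −0.77 to −0.63 for Akr1b3, −0.073 to 0.0091 for Sord, 0.22 to 0.30 for Tkfc and 0.39 to 0.53 for Slc5a3, with 722 to 1044 genes higher and 736 to 1262 lower. In DKD+enarodustat minus DKD it gave −0.057 to 0.065 for Khk, −0.037 to 0.17 for Nfat5, 63 to 112 genes higher and 8 to 27 lower. In DKD+enarodustat minus Sham it gave −0.18 to 0.00012 for Akr1b3 and −0.057 to 0.11 for Slc6a6, with 1139 to 1679 genes higher and 810 to 1389 lower. No spot was saturated and all 14 probes were well above background, but the size of the Slc6a12 differences varied with the processing. They were 1.09 in DKD minus Sham and 1.44 in DKD+enarodustat minus Sham with normexp. In the deposited table they were 1.07 and 1.42, and with quantile normalization alone 1.55 and 2.00. The deposited values nearly match normexp with the same offset, so the normexp and deposited results are not separate alternatives.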
